A study of Mus musculus with 48 samples.

Results

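The 10 genes described here are named genes of fat cells: Adipoq, Plin1, Cidec, Fabp4, Lep, Cfd, Retn, Lipe, Pparg and Ucp1. They were taken by name from the 25229 gene symbols of a table of read counts and were followed across 24 libraries made from left nodose ganglia of the mouse. All 10 were among the 14867 genes that passed the filter on low counts in these libraries. The same rows in 24 libraries of the hypothalamic arcuate nucleus served as background.

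All mice were male C57Bl/6J with the genotype Rev-erba/b flox/flox, in which the genes of the circadian repressors REV-ERBα and REV-ERBβ can be cut by Cre recombinase. Control mice received AAV8-TBG-EGFP and HepDKO mice AAV8-TBG-Cre, each into the tail vein at 6 to 10 weeks of age, and tissue was taken 2 to 4 weeks later, at a stated age of 10 to 12 weeks. The TBG promoter is active in hepatocytes, so deletion was aimed at the liver and not at the tissues sequenced. Mice were kept at 27 °C on chow with 12 h of light and 12 h of dark, and tissue was collected at ZT4, ZT10, ZT16 and ZT22, where ZT (zeitgeber time) counts hours from lights on. Each genotype and time point had 3 nodose libraries, each pooled from the ganglia of 4 mice, and 3 arcuate libraries, each pooled from 3 or 4 mice. The p-values below measure the spread between such pools.

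Fat cells store triglyceride in a lipid droplet that is coated by perilipin 1 (Plin1) and by CIDEC, release fatty acids through hormone-sensitive lipase (Lipe), and depend on the nuclear receptor PPARγ (Pparg) for their identity. They secrete adiponectin (Adipoq), leptin (Lep), the complement protease adipsin (Cfd) and resistin (Retn). White fat is the main source of leptin, whereas brown and beige fat burn fuel through the uncoupling protein UCP1. The nodose ganglion holds the cell bodies of vagal sensory neurons and lies in the neck among muscle, vessels and connective tissue, where fat is also found.

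Total counts ran from 1813994 to 10422914 per nodose library and from 15483922 to 20399718 per arcuate library. The shallowest nodose library was Control ZT4 replicate 1. The labelled tissue was poorly matched by its neuron markers: Snap25, a general neuron gene, had a median of 6.70 CPM (counts per 1000000 counts of the library), and the vagal sensory neuron genes Scn10a, P2rx2, Cckar and Glp1r each had a median of 0. The 14 sensory neuron markers summed to a median of 24.1 CPM in Control and 22.5 CPM in HepDKO nodose libraries. The Schwann cell genes Mbp and Pmp22 had medians of 6780 and 4442 CPM, and the 10 skeletal muscle genes, led by Myh4, summed to between 5794 and 80850.5 CPM.

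The promoters of 3 members are shown because Adipoq is the gene against which the others were compared, and Lep and Ucp1 are the 2 members that followed it least closely. Each line gives the 250 bases before the start site in RefSeq, build GRCm38.p6, 5′ to 3′ on the strand of the gene, which is the plus strand for all 3. Capitals mark matches on either strand to the C/EBP core TTGCNNAA, the DR1 element bound by PPARγ (a direct repeat of AGGTCA with any base between the repeats), the TATA core TATAA or CCAAT.
Adipoq, chr16:23146286-23146535: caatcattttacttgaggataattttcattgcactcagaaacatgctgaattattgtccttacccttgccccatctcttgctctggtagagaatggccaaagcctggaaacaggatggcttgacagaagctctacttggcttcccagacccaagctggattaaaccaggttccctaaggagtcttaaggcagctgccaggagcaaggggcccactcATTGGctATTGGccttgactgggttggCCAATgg
Lep, chr6:29059971-29060220: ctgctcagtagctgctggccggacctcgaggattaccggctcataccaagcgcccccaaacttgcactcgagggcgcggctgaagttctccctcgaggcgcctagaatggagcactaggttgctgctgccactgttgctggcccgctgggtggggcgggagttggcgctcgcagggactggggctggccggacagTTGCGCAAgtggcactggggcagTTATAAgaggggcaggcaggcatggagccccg
Ucp1, chr8:83290098-83290347: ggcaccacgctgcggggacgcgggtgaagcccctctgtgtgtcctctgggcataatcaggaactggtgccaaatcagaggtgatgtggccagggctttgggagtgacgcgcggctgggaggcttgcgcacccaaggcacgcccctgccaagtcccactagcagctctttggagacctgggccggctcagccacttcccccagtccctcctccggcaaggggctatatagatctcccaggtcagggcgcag

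Lep held a C/EBP core whose first base lay 55 bases before the start site and overlapping TATA matches on both strands at 32 and 31 bases before it. Adipoq held 3 CCAAT matches, at 34, 27 and 7 bases before the start site. Ucp1 held none of the 4 marked motifs and had a single AGGTCA half-site at 14 bases before the start site, which is not capitalised. Of the 10 members, 9 had an entry, with 13 windows of 300 bases in all, and Fabp4 had none. The C/EBP core was in 4 of these 13 windows (1 each of Lep, Cidec, Pparg and Plin1), against 9.56% of 32851 promoter windows of that length. None held DR1, which occurred in 0.0335% of all windows, and 3 held the AGGTCA half-site (1 of Ucp1 and 2 of Pparg), against 14.0%. TATAA was in 2 of the 13 windows and CCAAT in 3, against 22.8% and 33.8% of all windows. These matches describe letters in the sequence and do not show binding. In mm10 (GENCODE M21) the Adipoq gene spans chromosome 16 from 23146536 to 23158028, Lep chromosome 6 from 29060220 to 29073877 and Ucp1 chromosome 8 from 83290352 to 83298452.

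All 10 fat cell genes had a higher median CPM in nodose than in arcuate libraries. Together they took a median of 0.0945% of nodose counts, from 0.0224% (95% Wilson interval 0.0204% to 0.0247%, which covers counting error only) in Control ZT4 replicate 1 to 0.179% in the highest library, and a median of 0.000796% of arcuate counts. Over all 24 arcuate libraries, Adipoq had 16 counts, Plin1 23, Cidec 28, Ucp1 26, Cfd 4 and Lep 2, out of 416948476 counts. The nodose sum for Adipoq was 14359 out of 151809456 counts. In these bulk samples, fewer cells of a type and less RNA per cell cannot be told apart.

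In edgeR's quasi-likelihood test of nodose against arcuate libraries, 92.1% of 17478 genes were called at an adjusted p under 0.05, 45.6% higher and 46.6% lower in nodose, and 92.3% had an unadjusted p under 0.05. The members other than Lipe passed the filter on low counts only through the nodose libraries, so that test says nothing further about them and their counts above stand as a description. Lipe, which had 93 or more counts in every arcuate library, was higher in nodose by 2.7 on the log2 scale (SE 0.144, adjusted p by edgeR of 4.56e-19). For 9 members every nodose library lay above every arcuate library in CPM, as it did for 13.7% of the 22088 genes with any count. Ucp1 was the exception, with 21 nodose libraries above all arcuate libraries. Nodose libraries were depleted of ribosomal RNA (KAPA HyperPrep, RiboErase) and arcuate libraries were prepared by Novogene, and the part of the tissue in these differences cannot be told apart from that of the preparation.

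Levels between genes were compared as CPM per kilobase of merged exon length (GENCODE M21). By median over the 24 nodose libraries the order was Cfd at 221, Fabp4 at 95.4, Adipoq at 63.7, Cidec at 30.2, Plin1 at 14.2, Retn at 8.36, Lipe at 6.32, Pparg at 6.09, Ucp1 at 1.88 and Lep at 1.40 CPM per kilobase. The annotated exons of Fabp4 cover its whole gene of 4489 bases, and that length sets its value here. The range of each gene over the libraries overlapped those of its neighbours in this order. The 9 members with counts in every library varied between 4.37-fold (Lipe) and 32.5-fold (Pparg) from their lowest to their highest library. The Pparg value rests on 2 counts in Control ZT4 replicate 1, without which its range was 6.68-fold and the widest was that of Retn at 17.6-fold. Lipe overlaps the gene 4732471J01Rik and Pparg overlaps Gm44079 on opposite strands, and the strand setting of the counting is not given in the sources used here, so reads of those partners cannot be separated from theirs.

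Adipoq, the adiponectin gene, varied 10.4-fold between nodose libraries, and most of that variation lay between libraries of the same genotype and time. In Control it stood at 16.5, 61.3 and 87.0 CPM at ZT4, 92.0, 173 and 66.4 CPM at ZT10, 89.0, 74.9 and 135 CPM at ZT16, and 117, 26.8 and 71.2 CPM at ZT22. In HepDKO it stood at 129, 23.4 and 59.4 CPM at ZT4, 127, 70.2 and 134 CPM at ZT10, 151, 102 and 137 CPM at ZT16, and 106, 39.2 and 59.7 CPM at ZT22. Low libraries were found at ZT4 and ZT22 in both genotypes, and the ranges of Control and HepDKO overlapped at every time point. Within groups the standard deviation of Adipoq was 0.84 on the log2 scale, against a median of 0.30 over all genes tested, and 99.3% of genes had a lower one. For the other members this standard deviation ran from 0.51 for Lep to 1.68 for Ucp1.

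**Figure D1:**
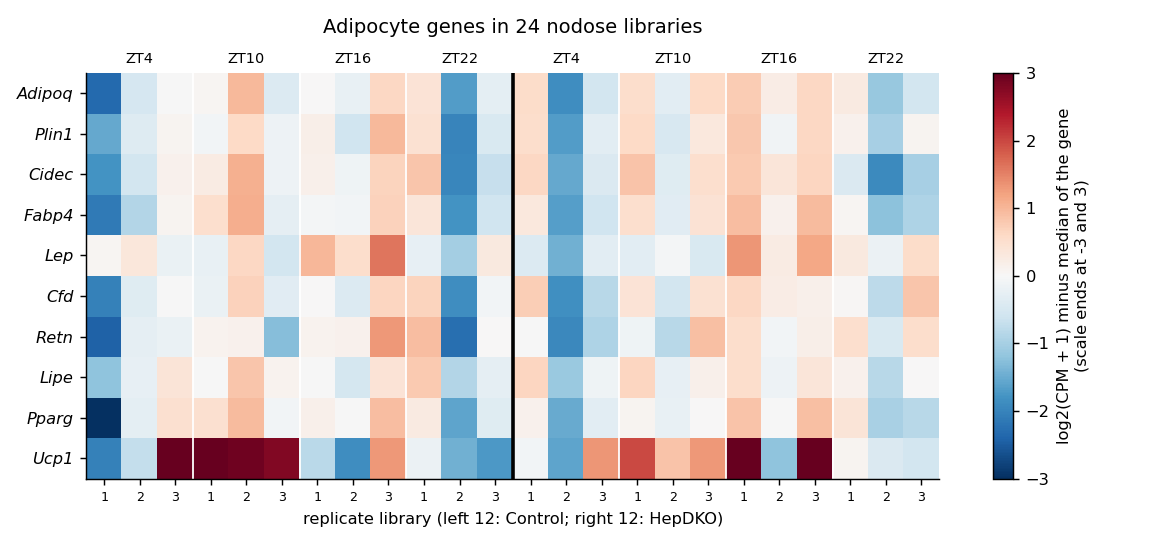
Level of each of the 10 genes in each of the 24 nodose libraries, as log2(CPM + 1) minus the median of that gene over the 24 libraries (colour, ending at -3 and 3). Control ZT4 replicate 1, Control ZT22 replicate 2 and HepDKO ZT4 replicate 2 are low for most genes, while Lep and Ucp1 have patterns of their own.

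The level of Adipoq was also related to the depth of the library. Across the 24 nodose libraries its log2 CPM had a Pearson correlation with log2 total counts of 0.490 (permutation p = 0.0167) and a Spearman correlation of 0.386 (permutation p = 0.0617), both two-sided. Without the 2 libraries farthest from the median of total counts Pearson's r was 0.426, and it was 0.557 within Control and 0.426 within HepDKO. The part of depth in the co-variation below was not tested.

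Of the other 9 members, 7 rose and fell with Adipoq across nodose libraries. Pearson's r with Adipoq on the log2(CPM + 1) scale was 0.971 for the fatty acid binding protein gene Fabp4, 0.940 for Plin1, 0.936 for Cidec, 0.934 for Pparg, 0.916 for Lipe, 0.911 for Cfd and 0.844 for Retn. These 7 passed a two-sided permutation test of 100000 resamples, with p adjusted over 14866 genes of 0.00201 for 6 of them and 0.00334 for Retn, and 1.14% of all genes passed with a positive r. Spearman's rho lay between 0.756 (Retn) and 0.963 (Fabp4). Without the 2 libraries farthest from the median of Adipoq, Control ZT4 replicate 1 and HepDKO ZT4 replicate 2, r for these 7 lay between 0.729 (Retn, adjusted permutation p = 0.0451) and 0.964 (Fabp4). Within Control, r lay between 0.895 and 0.977 and 6 passed, against 0.195% of all genes with a positive r. Within HepDKO, r lay between 0.776 and 0.971 and 5 passed, against 0.182%. Retn did not pass in either genotype alone, and Cfd did not pass in HepDKO alone (r 0.829, adjusted permutation p = 0.301).

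Lep and Ucp1 followed Adipoq less closely and did not pass. Pearson's r was 0.515 for Lep (Spearman's rho 0.410, permutation p = 0.00965 for r, adjusted p = 0.174) and 0.574 for Ucp1 (rho 0.593, permutation p = 0.00305 for r, adjusted p = 0.11). Without the same 2 libraries r was 0.479 for Lep and 0.475 for Ucp1. With library totals scaled by TMM factors, r for Ucp1 was 0.606 and passed (adjusted permutation p = 0.0448). Over the 28 pairs among the other 8 members, r ran from 0.714 to 0.971 with a median of 0.895. The 9 pairs with Lep had a median r of 0.512, the 9 pairs with Ucp1 one of 0.591, and Lep with Ucp1 was the weakest of the 45 pairs at 0.211. That value did not hold within the genotypes: r for Lep with Ucp1 was -0.085 in Control and 0.623 in HepDKO libraries, and the difference was not tested.

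The 10 genes that are no members and had the highest r with Adipoq over the 24 libraries were Car3, Ces1f, Mgst1, Ces1d, Pde3b, Ppa1, Tspan12, Ifi27l2a, Acsm3 and Cd1d1. Car3, a carbonic anhydrase abundant in fat and muscle, was nearest of all genes at 0.977 and had a median of 617 CPM. Cd1d1 closed the group at 0.899.

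**Figure D2:**
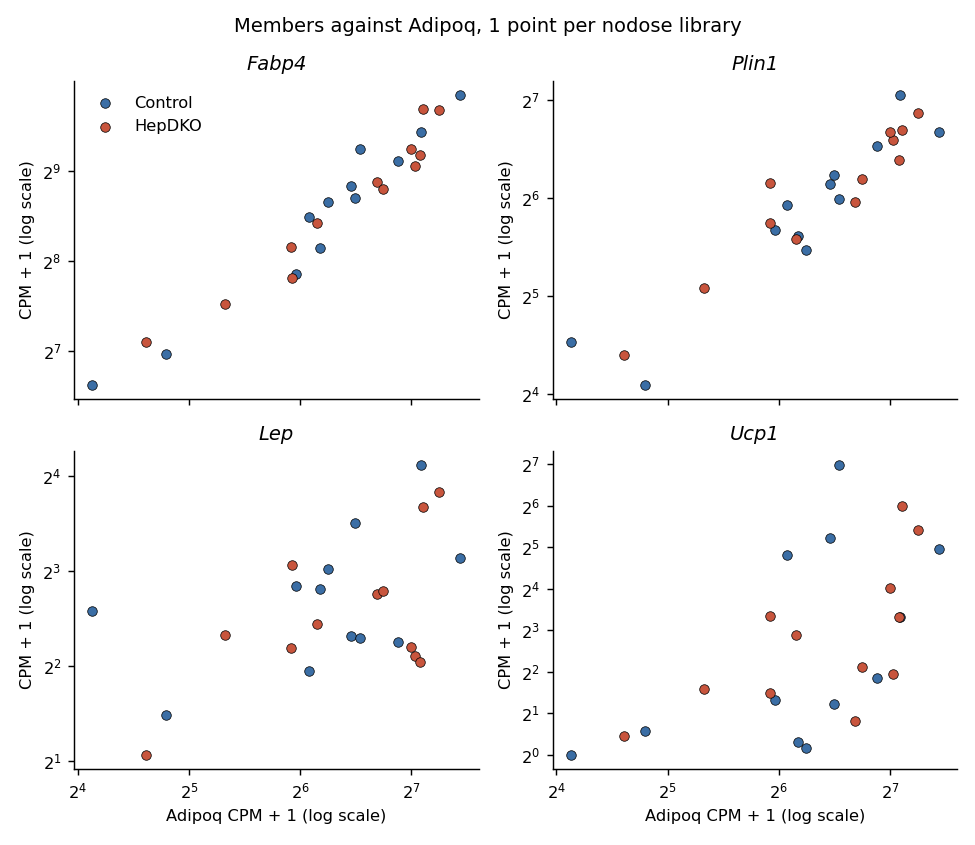
Level of Fabp4, Plin1, Lep and Ucp1 against that of Adipoq, both as CPM + 1 on log axes, with 1 point per nodose library (blue, Control; red, HepDKO). Fabp4 and Plin1 lie close to a line (r 0.971 and 0.940), and Lep and Ucp1 scatter (r 0.515 and 0.574).

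The same comparison was made within groups, by adding the log2 level of Adipoq to the 8 group means in edgeR's quasi-likelihood fit. The slope is then the log2 change of a gene per log2 unit of Adipoq among libraries of 1 genotype and time. Slopes were 1.17 for Retn (SE 0.155), 1.04 for Cidec (SE 0.081), 1.02 for Cfd (SE 0.120), 0.97 for Pparg (SE 0.108), 0.96 for Plin1 (SE 0.093), 0.95 for Fabp4 (SE 0.069) and 0.76 for Lipe (SE 0.081). These 7 passed, with adjusted p by edgeR from 3.35e-08 (Fabp4) to 0.000115 (Retn), and a slope of 1 is that of a gene that changes in proportion to Adipoq. The Lipe slope lay about 3 standard errors below 1. Of all 14866 genes, 0.706% passed, 105 with a positive slope and 0 with a negative one. At an unadjusted p under 0.05 there were 8 members, with Lep added, against 8.1% of all genes. Without Control ZT22 replicate 2 the 105 became 67, with 7 members among them.

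Lep had a slope of 0.49 (SE 0.164, adjusted p by edgeR of 0.342) and Ucp1 one of 1.35 (SE 0.641, adjusted p = 0.620), and neither passed. The test and the correlations above use the same libraries and are not independent of each other. In Control libraries alone 7 members and 64 genes in all passed. In HepDKO libraries alone 2 members passed, Cidec at 0.94 and Fabp4 at 0.86, and 10 genes in all, against 105 in the full set. The slopes of the other 5 in HepDKO alone lay between 0.72 (Lipe) and 0.95 (Cfd), and the difference in slope between genotypes was not tested.

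Genes of the same lipid pathways followed Adipoq in part. Genes said to rise with Adipoq are those whose slope passed. Of 13 further genes of lipid droplets and lipolysis, 3 rose with Adipoq. They were the glycerol channel gene Aqp7 at 0.56, the triglyceride lipase gene Pnpla2 at 0.42 and the droplet coat gene Plin4 at 0.50. Adrb3, at 0.69, did not pass (adjusted p by edgeR of 0.0941), and Hilpda had a negative slope of -0.17. Of 20 genes of fat uptake and synthesis, 4 rose with Adipoq. They were Pck1, an enzyme of glycerol supply, at 1.28, Thrsp at 1.01, the fatty acid transporter gene Cd36 at 0.43 and the triglyceride synthesis gene Dgat1 at 0.37. Dgat2, at 0.67, did not pass (adjusted p by edgeR of 0.0923), and Elovl6 and Fabp5 had negative slopes of -0.15. Scd1, Lpl and Fasn, the most abundant genes of that list at medians of 824, 683 and 471 CPM, had slopes of 0.37, 0.37 and 0.44 and did not pass. Of 13 transcription factors of fat cells, Cebpa rose with Adipoq at 0.71 (adjusted p by edgeR of 6.59e-05), and Zbtb16, Ebf2 and Ebf1, the most abundant, had slopes of 0.23, -0.01 and 0.09.

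Of 23 other genes enriched in fat cells, 11 rose with Adipoq, among them Car3 at 0.94, the phosphodiesterase gene Pde3b at 0.78, the receptor gene Acvr1c at 0.85 and haptoglobin (Hp) at 0.80. The list medians were 0.26 for lipid droplets, 0.34 for fat uptake and synthesis, 0.10 for transcription factors and 0.38 for the other enriched genes, against 0.97 for the 9 members and 0.00 for all genes tested. Of 14 adipose progenitor genes, 0 passed and the median slope was 0.12, with 5 at an unadjusted p by edgeR under 0.05, all with positive slopes. Their most abundant genes, Pdgfra, Cd34 and Pdgfrb, had slopes of -0.06, 0.07 and -0.06.

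Of the genes that mark other cells, 1 passed, Tshr. All 10 skeletal muscle genes had positive slopes with a median of 0.21, and 0 passed at an adjusted or an unadjusted p of 0.05. All 8 Schwann cell genes had negative slopes with a median of -0.22, and 0 passed, with 5 at an unadjusted p under 0.05. All 8 endothelial genes had positive slopes with a median of 0.15, and 0 passed, with 3 at an unadjusted p under 0.05. Of 6 sensory neuron genes tested, 5 had negative slopes and 0 passed, with Nefm, a neurofilament gene, nearest at -0.45 (unadjusted p by edgeR 0.000544, adjusted p = 0.0674). Of 6 neutrophil genes tested, 5 had negative slopes and 0 passed, with Ngp at -0.61 (unadjusted p by edgeR 0.0441), and of 8 macrophage genes 0 passed, with a median slope of 0.03. With the mean level of the muscle genes as a further covariate, 7 members passed and their slopes lay between 0.76 (Lipe) and 1.19 (Retn). Tshr, the thyrotropin receptor gene, which fat cells also express, had a slope of 0.75. The thyroid gene Tg was at a median of 1.08 CPM and Gcm2 was at 0 in every nodose library. Which cells the Tshr counts came from was not tested.

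**Figure D3:**
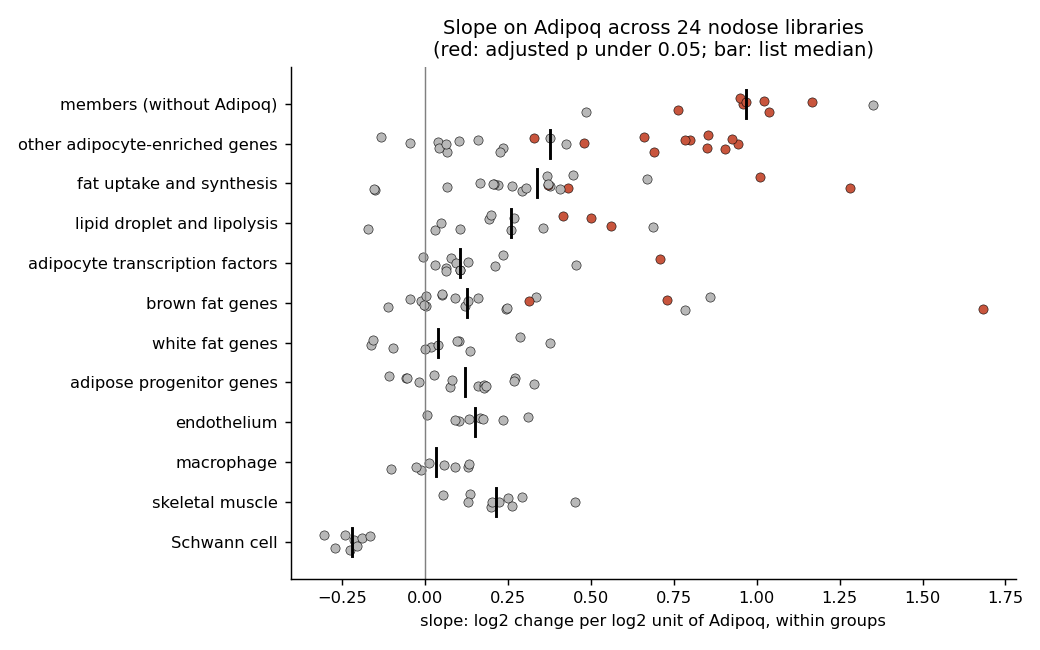
Slope of each gene on Adipoq within groups of nodose libraries (horizontal axis, log2 change per log2 unit of Adipoq), by gene list, 1 point per gene, with list medians as bars and genes with an adjusted p under 0.05 in red. The members centre near 1 (median 0.97), muscle genes near 0.21 and Schwann cell genes near -0.22.

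Among the members, Lep was detected in every nodose library (1.09 to 16.3 CPM, 6 to 95 counts) and Retn likewise (1.65 to 34.3 CPM), whereas Ucp1 ran from 0 counts in Control ZT4 replicate 1, where the limit that a count of 0 allows is 1.65 CPM, to 763 counts in Control ZT10 replicate 1. Per 100 counts of Adipoq, Ucp1 ranged from 0 to 135 with a median of 4.11, and Lep from 2.32 to 30 with a median of 6.15. The highest Lep ratio and the lowest Ucp1 ratio came from Control ZT4 replicate 1, with 9 counts of Lep and 30 of Adipoq, and without it the highest Lep ratio was 12.3. Without Control ZT10 replicate 1 the highest Ucp1 ratio was 45.8. By comparison, Fabp4 ranged from 375 to 658 with a median of 478. The highest Cfd of all libraries, 363 CPM in HepDKO ZT22 replicate 3, came with an Adipoq of 59.7 CPM and gave 608 Cfd counts per 100 of Adipoq, against a median of 232.

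The summed levels of the white and brown fat lists had lower medians in nodose than in arcuate libraries. Without the members, 22 brown fat genes summed to a median of 389 CPM in Control and 464 CPM in HepDKO nodose libraries against 557 CPM in arcuate libraries. The 16 white fat genes summed to 820 and 729 CPM against 1777 CPM. The 10 members went the other way, at 858 and 990 CPM against 7.96 CPM. These list sums therefore did not follow the fat cell members and do not measure fat alone. Of 20 further brown fat genes tested, 3 rose with Adipoq: Cidea, a lipid droplet protein gene of brown fat, at 1.68 (SE 0.352, adjusted p by edgeR of 0.0263), the potassium channel gene Kcnk3 at 0.73 and the transcription factor gene Ebf3 at 0.31. The most abundant genes of that list, Cox8b, Cox7a1 and Ppargc1a, which muscle also expresses, had medians of 87.0, 58.6 and 56.8 CPM and slopes of 0.24, 0.16 and 0.09 that did not pass. Of 11 further white fat genes tested, 0 passed, and the most abundant, Fgf1, Sncg and Lpgat1, had slopes of -0.16, -0.16 and 0.10. At an unadjusted p by edgeR under 0.05, Slc7a10 (0.38) and Dpt (0.29) had positive slopes and Sncg a negative one, against 8.1% of all genes. Hoxc8 had 0 counts in all nodose libraries, and Hoxc9, Hoxc10 and Tcf21 had 2, 8 and 1 counts in all. The brown fat gene Zic1 had a median of 0.701 CPM and Fgf21 0 counts.

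Genes nearest to Ucp1 and to Lep were listed after the data were seen. With Ucp1 as the reference, 14 of 14866 genes (0.0942%) passed with a positive r and 10 (0.0673%) with a negative one, and no other member passed, the nearest being Fabp4 at 0.685 (rho 0.721, adjusted permutation p = 0.0719). Fabp4 passed with TMM-scaled totals (r 0.714, adjusted permutation p = 0.0391), and Pparg with a pseudocount of 0.25 (r 0.683, adjusted permutation p = 0.0388). The genes with the highest r were Slc27a2 at 0.861 (rho 0.877), Cidea at 0.846 (rho 0.873), Dgat2 at 0.836 (rho 0.859) and Dio2 at 0.825 (rho 0.851), each with an adjusted permutation p of 0.0165. Slc27a2, Cidea, Dio2 (which activates thyroid hormone in brown fat) and Kcnk3 (r 0.781) belong to the 20 brown fat genes, and the other 16 did not pass. Cidea stayed at 0.828 without the 2 libraries farthest from the median of Ucp1, and was at 0.846 in Control and 0.879 in HepDKO. With Lep as the reference 0 of 14866 genes passed in either direction, and the nearest were Thrsp at 0.770, G0s2 at 0.764 and Cdo1 at 0.762, each with an adjusted permutation p of 0.0991.

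Time of day was tested as a 24-h rhythm, the contrasts ZT4 minus ZT16 and ZT10 minus ZT22 together, in edgeR's quasi-likelihood test. Averaged over genotypes, 0 of the 10 members passed, against 1.33% of all genes, and 4 members had an unadjusted p under 0.05 (Lep, Ucp1, Fabp4 and Cidec), against 12.8% of all genes. In DESeq2, 1 member passed, Lep, against 359 genes in all (2.41% of the 14867 genes tested by edgeR). Within Control 0 members passed by edgeR, against 0.242% of all genes, and 1 (Ucp1) had an unadjusted p under 0.05, against 8.88%. Within HepDKO 0 passed by edgeR, against 0.121%, and 2 (Lep and Ucp1) had an unadjusted p under 0.05, against 7.28%. DESeq2 called 0 members within either genotype, against 125 genes in Control (0.841% of those 14867) and 67 in HepDKO (0.451%). It was run without the filter on low counts, so these are not shares of the genes that DESeq2 tested.

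Leptin RNA had its highest medians at ZT16, in the dark phase, in both genotypes. In Control, Lep was at 4.96, 6.16 and 3.98 CPM at ZT4, 3.91, 7.77 and 2.86 CPM at ZT10, 10.4, 7.14 and 16.3 CPM at ZT16, and 3.78, 1.79 and 6.00 CPM at ZT22. In HepDKO it was at 3.28, 1.09 and 3.56 CPM at ZT4, 3.58, 4.43 and 3.11 CPM at ZT10, 13.2, 5.75 and 11.7 CPM at ZT16, and 5.93, 4.00 and 7.34 CPM at ZT22. The medians of the 6 libraries were 3.77, 3.74, 11.1 and 4.96 CPM at ZT4, ZT10, ZT16 and ZT22, and 4 of the 6 ZT16 libraries lay above all 18 others, while Control replicate 2 and HepDKO replicate 2 lay within the range of the other times. Averaged over genotypes the fitted amplitude was 0.70 on the log2 scale (SE 0.163) with a peak at ZT16.1, and the adjusted p by edgeR of 0.0746 missed the threshold. The SE of an amplitude, here and below, takes the fitted peak time as known and so leaves out the error of that time.

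That result for Lep sat at the threshold. With total counts as the only scaling, the adjusted p was 0.0343 (amplitude 0.76), with the muscle level as a covariate 0.0478 and by DESeq2 0.0126. By edgeR it was 0.0484 without Control ZT10 replicate 2, 0.0443 without Control ZT10 replicate 3, 0.0486 without Control ZT22 replicate 2 and 0.0458 without HepDKO ZT16 replicate 2. With the level of Adipoq as a covariate the amplitude was 0.51 and the adjusted p 0.293. The Lep amplitude was 0.54 in Control with a peak at ZT14.0 (adjusted p by edgeR of 0.640) and 0.98 in HepDKO with a peak at ZT17.2 (adjusted p = 0.249), and the rhythm difference between genotypes had an adjusted p of 0.982. With the level of Adipoq as a covariate the Control amplitude was 0.26 (adjusted p by edgeR of 0.937).

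No other member passed the edgeR test of the rhythm averaged over genotypes. Fabp4, with medians of 258, 593, 579 and 253 CPM at ZT4, ZT10, ZT16 and ZT22, had an amplitude of 0.67 and an adjusted p by edgeR of 0.262. Cidec, with medians of 39.5, 73.4, 79.7 and 31.0 CPM, had an amplitude of 0.65 and an adjusted p of 0.320. Adipoq, with medians of 60.4, 109, 119 and 65.5 CPM, had an amplitude of 0.51 and an adjusted p of 0.473. At a given level of Adipoq, as a covariate, the amplitudes were 0.20 for Fabp4 and 0.28 for Cidec, and no member passed. Of the 13 lipid droplet and lipolysis genes 1 passed, against the 1.33% of all genes: G0s2, which inhibits lipolysis, had an amplitude of 0.91 with a peak at ZT15.6 (adjusted p by edgeR of 0.0166). Of the 20 fat uptake and synthesis genes 3 passed, the lipid synthesis genes Acly, Acaca and Fasn, which peaked between ZT17.5 and ZT18.1 with adjusted p by edgeR from 0.0194 to 0.0459. Of the 11 white fat genes 2 passed, Inhbb, an activin subunit gene, with an amplitude of 0.90 and a peak at ZT14.5 (adjusted p by edgeR of 0.000292), and Npr3 with an amplitude of 0.32. Of the 20 brown fat genes 0 passed by edgeR, with 7 at an unadjusted p under 0.05, against 12.8% of all genes. The 10 muscle genes had a median amplitude of 0.20, with 0 past an unadjusted p of 0.05.

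**Figure D4:**
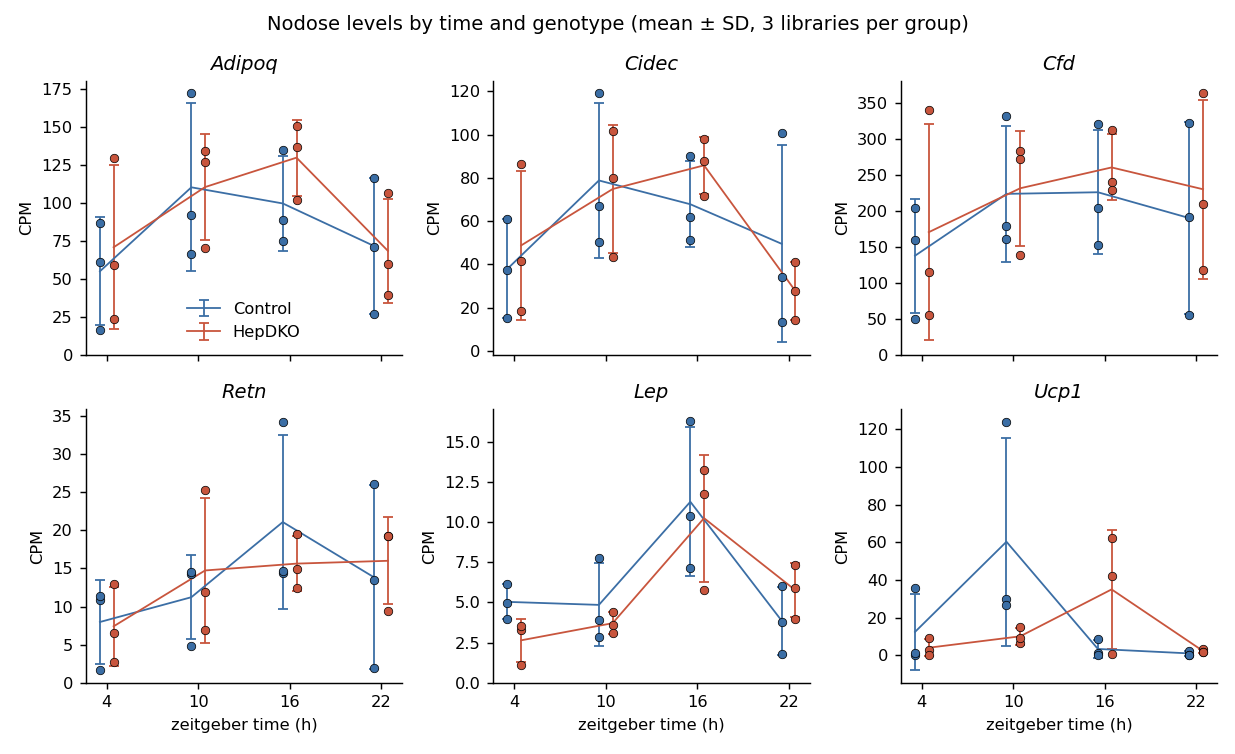
Level in CPM (vertical axis) of Adipoq, Cidec, Cfd, Retn, Lep and Ucp1 by zeitgeber time in hours, with 1 point per nodose library and the mean ± SD of 3 libraries per group (blue, Control; red, HepDKO). The Lep median is highest at ZT16 (11.1 CPM over 6 libraries), and Ucp1 is at or above 27.0 CPM in the 3 Control libraries at ZT10, 1 Control library at ZT4 and 2 HepDKO libraries at ZT16.

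Ucp1 differed most between libraries. In Control it was at 0, 1.49 and 36.0 CPM at ZT4, 124, 29.9 and 27.0 CPM at ZT10, 1.33, 0.112 and 9.0 CPM at ZT16, and 2.60, 0.487 and 0.240 CPM at ZT22. In HepDKO it was at 2.83, 0.364 and 9.19 CPM at ZT4, 15.1, 6.37 and 9.04 CPM at ZT10, 41.9, 0.757 and 62.6 CPM at ZT16, and 3.31, 2.00 and 1.8 CPM at ZT22. All 6 ZT10 libraries lay above all 6 ZT22 libraries, as they did for 0.262% of the 14867 genes and for no other member. At ZT10 the 3 Control libraries lay above the 3 HepDKO libraries, as they did for 4.18% of genes and for no other member. Both pairs of groups were picked after the values were seen. At ZT16 the order was mixed, since HepDKO replicate 2 lay within the Control range.

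Averaged over genotypes the Ucp1 rhythm had an amplitude of 1.94 (SE 0.528) with a peak at ZT9.99 and an adjusted p by edgeR of 0.168. Within Control the amplitude was 3.20 with a peak at ZT8.15 (adjusted p by edgeR of 0.198), and within HepDKO it was 1.82 with a peak at ZT13.6 (adjusted p = 0.674). With the level of Adipoq as a covariate the HepDKO amplitude was 0.97 (adjusted p by edgeR of 0.998). The difference in rhythm between genotypes had an amplitude of 3.46 (SE 1.03), an unadjusted p by edgeR of 0.0120 and an adjusted p of 0.982. For that difference 0 of 10 members and 0% of all genes passed by edgeR, and 2.83% of all genes had an unadjusted p under 0.05.

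No member passed the test of HepDKO against Control. Averaged over the 4 time points, 0 of 10 members and 0% of all genes passed by edgeR, with 0 members and 3.34% of all genes at an unadjusted p under 0.05, and 0 members passed by DESeq2. The Adipoq estimate was 0.18 on the log2 scale, HepDKO minus Control (SE 0.303), with medians of 81.0 CPM in Control and 104 CPM in HepDKO. The other estimates lay between -0.14 for Lep (SE 0.231) and 0.25 for Cfd (SE 0.330), and Ucp1 was at 0.12 (SE 0.740), each with an adjusted p by edgeR of 1.00. With such standard errors, differences in the members of the size seen could not be told from 0.

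At single time points the count was again 0 of 10 members by edgeR and by DESeq2, with 0% of all genes passing by edgeR at each of ZT4, ZT10, ZT16 and ZT22. The Ucp1 estimate was -2.61 on the log2 scale at ZT10 (HepDKO minus Control, SE 1.19, unadjusted p by edgeR 0.0409, adjusted p = 0.998) and 4.04 at ZT16 (SE 1.46, unadjusted p 0.0126, adjusted p = 0.845). At ZT10, 2.04% of all genes had an unadjusted p under 0.05, and at ZT16 4.94% had one. No other member had an unadjusted p under 0.05 at either time. At ZT4 and ZT22, 0 members had one, against 2.36% and 5.25% of all genes. The 10 muscle genes had the sign of Ucp1 at some times and not at others: they were positive for all 10 at ZT16 (0.59 to 4.46, median 0.75, 1 at an unadjusted p under 0.05) and negative for 9 of 10 at ZT10 (median -0.47). At ZT4, where the Ucp1 estimate was -1.90, 9 of 10 were positive (median 0.41), and at ZT22, where it was 0.94, 9 of 10 were positive (median 0.50). Without Control ZT4 replicate 3 the Ucp1 estimate at ZT4 was positive, so its sign there rests on 1 library. With the muscle level as a covariate, the Ucp1 estimate was -2.54 at ZT10 (unadjusted p by edgeR 0.0762) and 3.96 at ZT16 (unadjusted p 0.0461).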

How the data were processed

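The authors deposited 1 table of raw counts per gene symbol for 48 libraries. Per the submitters' processing notes, FastQC 0.11.7, Trim Galore 0.6.10, STAR 2.7.10b and mm10 were used; the counting tool, annotation and strand setting are not given in the sources used here. From the deposited counts, genes were filtered (filterByExpr), scaled (TMM) and tested with edgeR 4.0.16 (quasi-likelihood, R 4.3.3) on 8 nodose group means, or 16 groups for the tissues, with Benjamini-Hochberg adjustment over all genes tested and a threshold of 0.05. CPM used total counts, correlations log2(CPM + 1) and 100000 permutations of libraries (numpy 2.4.6). DESeq2 1.42.0, other scalings, no filter, covariates and leaving out each library were alternatives.

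The members and the 15 gene lists were chosen with earlier results of these data known, and the comparisons with Ucp1 and Lep as reference after the values were seen. Named genes were all members, the 3 most abundant genes of a list, up to 4 list genes past the threshold per test, and the 10 genes nearest to Adipoq; further genes, such as sensory neuron genes, Tg, Gcm2, Hox genes, Zic1 and those nearest to Ucp1 and Lep, were named after their values were seen. On simulated data the rhythm test recovered 79% of 100 genes with an amplitude of 0.5 and 94% of 100 with 1.0 (14678 genes). The slope test recovered 81% of 100 with a slope of 0.5 (14711 genes). The changed genes were drawn at random, without regard to their spread. Within groups the members had standard deviations of 0.51 to 1.68 on the log2 scale, against a median of 0.30 over all genes. These shares therefore do not apply to the members. Same-numbered libraries did not deviate together (median correlation -0.000427 over 84 pairs, 27 over 0.1), so replicate numbers were not used as pairs. Replicates differed by more than sampling noise (lowest chi-square per degree of freedom 8.12 over 24 pairs).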

Additional observations from a re-analysis of the deposited data

How the results depend on the processing

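In the rhythm averaged over genotypes the count of members past the threshold went from 0 to 1 with total counts alone, with the muscle level as a covariate and by DESeq2 (Lep in each), and ranged from 0 to 1 when each library was left out in turn. Replicate numbers do not pair these libraries, and with the number as a replicate block the count was also 1, Ucp1 (amplitude 2.08, adjusted p by edgeR of 0.0422), while Lep had an adjusted p of 0.0828. The replicate block changed the call of no other member in the edgeR tests. The count of members with a slope on Adipoq was 7 in every alternative but HepDKO libraries alone, where it was 2. The cause was not tested.

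Genotype estimates for members, none past the threshold, changed sign in places. With Adipoq as a covariate they were -0.027 for Fabp4, -0.073 for Retn, -0.058 for Lipe and -0.0090 for Ucp1. Retn was at -0.0089 with total counts alone and -0.049 with the replicate block, under which Lipe was at -0.0097. Leaving out each library gave -0.0043 to 0.34 for Adipoq, -0.21 to 0.21 for Cidec, -0.055 to 0.30 for Fabp4, -0.14 to 0.24 for Retn, -0.080 to 0.20 for Lipe, -0.24 to 0.11 for Pparg and -0.25 to 1.12 for Ucp1. Ucp1 at ZT4 ranged from -3.31 to 2.14, the latter without Control ZT4 replicate 3. The correlation of Ucp1 with Lep was -0.085 in Control alone and 0.623 in HepDKO alone.

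Counts over all genes moved more than those of members. Genes called were 2 by DESeq2 against 0 by edgeR for genotype. For the rhythm in Control they were 125 by DESeq2, 69 with the muscle level and 23 with Adipoq as a covariate against 36, and 15 without Control ZT10 replicate 2 to 71 without HepDKO ZT22 replicate 3. For the rhythm in HepDKO they were 67 by DESeq2 against 18. For all genes called, nodose 24-h rhythm averaged over genotypes, they were 359, 339 and 87 in that order against 198, and 128 without HepDKO ZT16 replicate 3. For the slope they were 64 in Control alone and 10 in HepDKO alone against 105. The low counts of Lep and Ucp1, down to 6 and 0 in a library, limit what can be seen for both.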
